A study of Mus musculus with 20 samples.

Results

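Transcript levels of germinal vesicle (GV) oocytes labelled Erk-/- were compared with those of wild-type GV oocytes of the same experiment, 1 library each, 2 of the 20 libraries of the study. GV oocytes are full-grown oocytes still arrested in the first meiotic prophase. Genes with 5 or more FPKM (fragments scaled by transcript length and by mapped fragments) in either library entered, which gave 8240 of 23309 symbols. Both libraries came from the ICR strain of mouse. Per the labels, each sample pooled 60 oocytes of females 21 to 23 days old, collected after injection of PMSG and hCG, the gonadotropins used for superovulation. The shared protocol names wild-type and Btg4-/- females only, so for the Erk-/- oocytes the genotype label is the source of the group. Whether its hormone schedule, hCG in particular, applied to the GV oocytes of the Erk experiment is therefore uncertain. That label does not say which gene was targeted. The sources used here give neither the allele nor any Cre driver. The same experiment holds 1 Erk-/- and 1 wild-type library of MII oocytes, which are mature and arrested in the second meiotic metaphase. The study's other 16 libraries, of Btg4-/- and wild-type oocytes and embryos with 2 per group, serve here only as a yardstick.

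ERK kinases, among them ERK1 (gene Mapk3), are the last step of a relay in which MOS or another upstream kinase activates the kinases MEK1 and MEK2, and these activate ERK. In mouse oocytes MOS is translated from stored mRNA once meiosis resumes, so the relay is mostly inactive in the GV oocyte and active during maturation, where it serves spindle organisation and the arrest at MII. Transcription is largely silent in the full-grown GV oocyte, and its mRNAs are stored for later translation.

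With 1 library per genotype, no difference below has a replicate check, and no p-value is given. A change is the difference Erk-/- minus wild type in log2(FPKM + 1), which understates the change of genes at low FPKM, and 2-fold means a change of 1 or more in size. Estimated depth was about 5760000 fragments in the Erk-/- library and 7320000 in the wild type. The Erk experiment differed from the Btg4 experiment beyond genotype. The 2 GV libraries listed 13643 and 13252 symbols at 0, against 9609 to 10468 in the 4 GV libraries of the Btg4 experiment. Many oocyte transcripts were also at other levels: Nlrp5, for example, had 1172 FPKM in the wild type of the Erk experiment and 3.38 and 1.36 FPKM in the wild-type GV libraries of the Btg4 experiment.

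Mapk3, the gene of ERK1 (chromosome 7, 133903140 to 133909330 in mm9), had 52.3 FPKM in Erk-/- and 333 FPKM in wild type, a change of -2.65. The wild-type GV libraries of the Btg4 experiment, in which many transcripts were at other levels, held 35.7 and 29.0 FPKM, both below the Erk-/- value. With the mean of all 3 wild-type GV libraries as reference, the Mapk3 change was -0.43 and no longer 2-fold. At MII Mapk3 was at 34.3 FPKM in Erk-/- and 25.7 FPKM in wild type. Btg4, the adaptor that recruits the CCR4-NOT deadenylase to maternal mRNA, had 250 FPKM in Erk-/- and 216 FPKM in wild type, a change of 0.21.

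**Figure D1:**
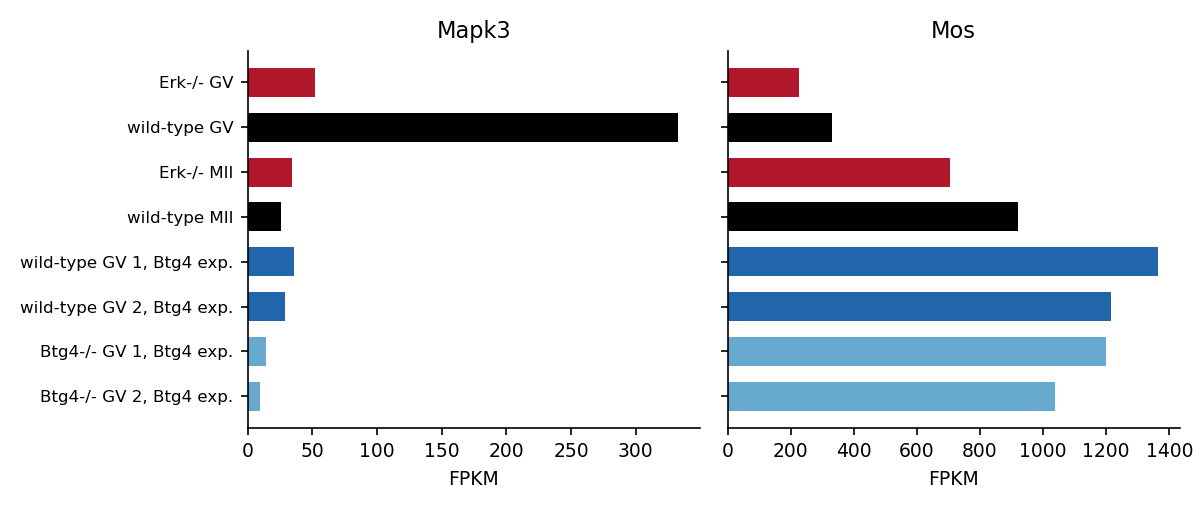
Bars give the FPKM of Mapk3 and Mos in 8 single libraries, the 4 of the Erk experiment and the 4 GV libraries of the Btg4 experiment, each panel with its own axis from 0. For Mapk3 the wild-type GV library of the Erk experiment, at 333 FPKM, is above all others.

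Over all genes tested, 1487 (18%) were at least 2-fold higher and 1837 (22.3%) at least 2-fold lower in Erk-/-, with a median change of -0.08. The deposited intervals of the 2 libraries were separate for all of these genes (again 18% and 22.3%), so that criterion removed none of them. By contrast, the 2 wild-type GV libraries of the Btg4 experiment differed 2-fold for 1.65% of 5762 genes, and the 2 Btg4-/- GV libraries for 2.47% of 5395. The Erk-/- and wild-type libraries therefore differed more than replicate libraries of the other experiment, at every abundance shown. For genes with 5 FPKM or more in both wild-type GV libraries of the Btg4 experiment, the Erk-pair library nearer to them was counted. Of 669 such genes 2-fold higher in Erk-/-, Erk-/- was nearer for 453 and wild type for 216. Of 875 that were 2-fold lower, Erk-/- was nearer for 268 and wild type for 607. Because such genes hold 5 FPKM or more there, a library listing them at or near 0 tends to be the farther one. The counts therefore cannot tell which library of the pair stands apart. Among genes with a geometric mean of 100 FPKM or more, Erk-/- was nearer for 19 of 31 higher genes. Of 38 lower genes at that level, it was nearer for 17. With the mean of the 3 wild-type GV libraries as reference, 18 of 52 genes followed that were past 2-fold lost that call: Mapk3, Mknk2, Rps6ka1, Spry1, Cd9, Eed, Nlrp9c, Ddx4, Cdk1, Smc1b, Ybx1, Rpl8, Rpl35, Rpl39, Atp5o, Cox6a1, Uqcrfs1 and Oaz1. How much of this the genotype and how much the libraries themselves contributed cannot be told apart with 1 library each.

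The share of genes past 2-fold depended on abundance. It was 72.4% of genes with a geometric mean under 10 FPKM, 34.5% at 10 to 30, 18.4% at 30 to 100, 10.2% at 100 to 300 and 3.76% at 300 or more (all on FPKM + 1). Among the 818 genes with a geometric mean of 100 FPKM or more, 32 (3.91%) were 2-fold higher and 38 (4.65%) 2-fold lower. At 300 FPKM or more, 8 of 213 genes passed: Rpl35 was higher, and Rpl39, Rps15, Mrpl14, Atp5k, Atp5g1, Cox6a1 and Magoh, a core protein of the exon junction complex, were lower.

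**Figure D2:**
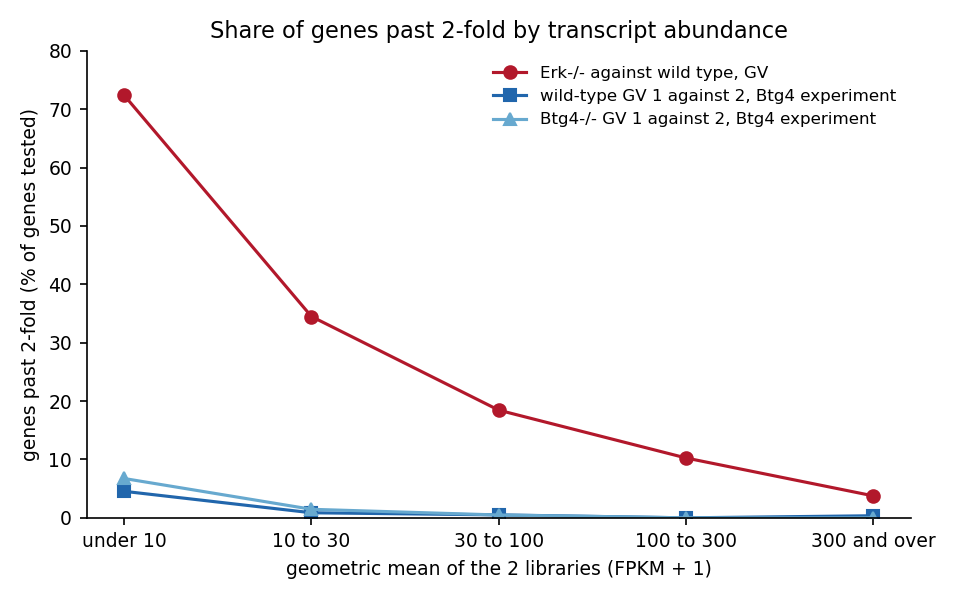
The share of tested genes past 2-fold (%) is plotted against the geometric mean of the compared libraries, for Erk-/- against wild-type GV and for the 2 replicate pairs of GV libraries of the Btg4 experiment. The share falls from 72.4% to 3.76% in the Erk pair and lies above both replicate pairs in every class.

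Short transcripts passed more often than long ones of like abundance. At 100 FPKM or more, 24.6% of 126 genes whose longest transcript is under 1000 bases were past 2-fold, 11 of them higher and 20 lower. The share was 7.2% of 250 genes at 1000 to 2000 bases, 3.80% of 316 at 2000 to 4000 and 6.61% of 121 above that. Changes went both ways in each class, and across 8188 genes Spearman's rho of change with length was 0.03, given as a description without a test.

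In the MOS-MEK-ERK list, 25 of 30 genes in the files reached 5 FPKM. Of these, 2 were 2-fold higher and 4 were 2-fold lower, or 8% and 16%, below the shares over all genes. The median change was -0.55. The members named next were within 2-fold in the 2 libraries. Mos, the oocyte-specific activator of MEK, had 225 FPKM in Erk-/- and 332 FPKM in wild type. Map2k1, which encodes MEK1, had 81.3 and 83.6 FPKM, and Map2k2, which encodes MEK2, 37.6 and 31.9 FPKM in the same order. Pebp1, which encodes an inhibitor of the relay, had 288 and 322 FPKM, so none of these 4 genes differed 2-fold.

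The adaptor and GTPase genes further upstream were lower without reaching 2-fold. Hras1 had 29.7 FPKM in Erk-/- and 55.0 FPKM in wild type. Grb2, which links receptors to the Ras activator SOS, had 14.4 and 27.8 FPKM. The other genes past 2-fold named here were of low abundance. Rps6ka1, which encodes the ERK-activated kinase RSK1, had 2.91 FPKM in Erk-/- and 12.0 FPKM in wild type. Mknk2, a kinase that ERK activates to phosphorylate eIF4E, had 4.91 and 15.2 FPKM. Araf had 6.82 FPKM and Sos2 5.16 FPKM in Erk-/-, and both were listed at 0 in wild type. An exact 0 in these files can also be a failed estimate, so no fold is given against it. Lamtor2, which is outside this list and belongs to the late-endosomal Ragulator complex that scaffolds MEK1 and ERK, had 160 FPKM in Erk-/- and 5.26 FPKM in wild type, a change of 4.68. The wild-type GV libraries of the Btg4 experiment held Lamtor2 at 20.1 and 10.7 FPKM.

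Genes that ERK activity induces in other cells, among them its own phosphatases and Sprouty inhibitors, differed in both directions. Of 31 such genes, 13 reached 5 FPKM, of which 3 (23.1%) were 2-fold higher and 6 (46.2%) were 2-fold lower, against 18% and 22.3% of all genes. The list median was 0.50, and it became -0.41 with a filter of 1 FPKM and -0.75 with 3 wild-type libraries. Spry1, an inhibitor of receptor signalling to ERK, had 25.5 FPKM in Erk-/- and 4.39 FPKM in wild type, a change of 2.30 that became 0.09 with 3 wild-type libraries. The ETS factor gene Etv1 had 22.7 and 7.45 FPKM. Among the phosphatase genes, Dusp4 had 17.7 FPKM in Erk-/- and was listed at 0 in wild type, whereas Dusp2 was listed at 0 in Erk-/- and at 20.9 FPKM in wild type. Phlda1 had 0.26 FPKM in Erk-/- and 11.6 FPKM in wild type. The most abundant member, Dusp7, a phosphatase of ERK, had 115 FPKM in Erk-/- and 65.9 FPKM in wild type, a change of 0.80. The immediate-early genes Fos, Egr2, Egr3, Myc and Junb were listed at 0 in both libraries. Ier3, another early response gene, was listed at 0 in Erk-/- and at 6.74 FPKM in wild type.

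The oocyte's most abundant transcripts were close in the 2 libraries. Zp3, a glycoprotein of the zona pellucida that coats the egg, had 3811 FPKM in Erk-/- and 4768 FPKM in wild type. Zp2 had 1819 and 2687 FPKM, and Zp1 1103 and 1238 FPKM. The growth factor gene Gdf9 had 3611 FPKM in Erk-/- and 4139 FPKM in wild type, and its partner Bmp15 901 and 1189 FPKM. All 5 lay lower in Erk-/- by less than 2-fold on the deposited scale. With quantile normalization Gdf9 had 0.18 and Zp1 0.04, and against the mean of 3 wild-type libraries all 5 were higher in Erk-/-, from 0.92 (Bmp15) to 2.98 (Zp3). Of the 13 zona and oocyte-secreted genes tested, 1 (7.69%) was 2-fold higher and 0 lower, against 18% and 22.3% of all genes. Their median change was -0.17, which became 0.0035 with quantile normalization. The gene that passed was Cd9, the tetraspanin of the egg surface needed for fusion with sperm, with 200 FPKM in Erk-/- and 82.3 FPKM in wild type. Its values in the wild-type GV libraries of the Btg4 experiment, 232 and 191 FPKM, were on the Erk-/- side.

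Maternal effect genes act through egg-stored products after fertilization, and they gave a like picture. The linker histone gene H1foo had 2363 FPKM in Erk-/- and 2353 FPKM in wild type, and Ooep of the subcortical maternal complex 1143 and 1242 FPKM. Nlrp5, also of that complex, had 612 and 1172 FPKM, a change of -0.94 (4.74 against 3 wild-type libraries) that was the lowest among the 36 members with a geometric mean of 100 FPKM or more. The highest change among these 36 was 0.57 (Tcl1b1), so 0 of them passed 2-fold. Of all 818 genes that abundant 70 passed, but that share depended on abundance and transcript length. It was 3.76% at 300 FPKM or more, and 3.80% for genes of 2000 to 4000 bases. The median length of the 48 members tested was 2342.5 bases. A count matched for both was not made. Of those 36, 27 were lower and 9 higher. Over all 48 members tested, 3 (6.25%) were 2-fold higher and 1 (2.08%) was lower, against 18% and 22.3% of all genes. Eed, a Polycomb subunit, had 72.5 FPKM in Erk-/- and 18.7 FPKM in wild type, against 64.0 and 64.7 FPKM in the wild-type GV libraries of the Btg4 experiment. Hsf1, the heat shock transcription factor, had 64.1 and 17.4 FPKM. Figla, the oocyte transcription factor that drives zona genes, had 32.1 and 13.8 FPKM, while Nlrp9c, one of several near-identical copies, had 56.8 and 151 FPKM.

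The most abundant wild-type transcript was Ldhb, a lactate dehydrogenase subunit, with 6619 FPKM against 4372 FPKM in Erk-/-. Padi6 of the oocyte lattices had 2641 FPKM in Erk-/- and 4264 FPKM in wild type, and Nlrp14 1462 and 2427 FPKM. Zbed3 had 2801 and 2938 FPKM, and the deubiquitinase gene Uchl1 2659 and 2919 FPKM. These 5, named as the most abundant in wild type, had changes from -0.73 (Nlrp14) to -0.07 (Zbed3). Their direction depended on the setting: with quantile normalization Zbed3 had 0.31 and Uchl1 0.18, and against the mean of 3 wild-type libraries all 5 were higher in Erk-/-, with 4.06 for Ldhb, 3.33 for Padi6 and 3.19 for Nlrp14.

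**Figure D3:**
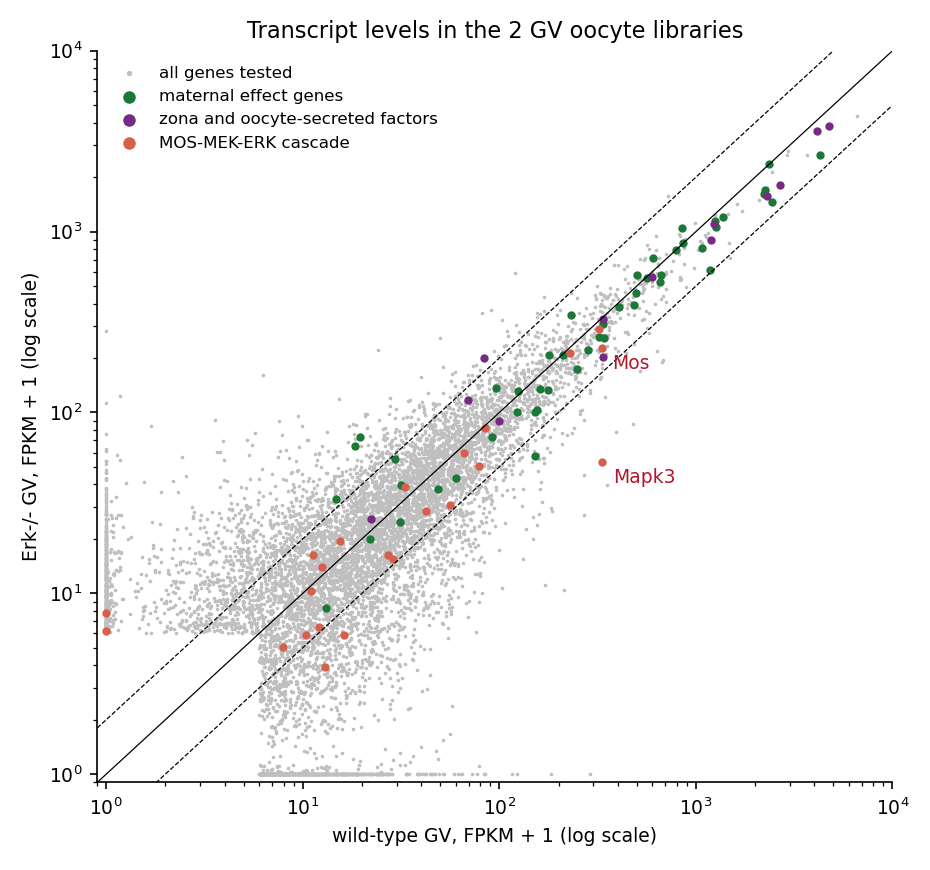
Each point is 1 of the 8240 genes tested, with FPKM + 1 in the wild-type GV library on the x axis and in the Erk-/- GV library on the y axis, both on log scales. The solid line marks equal values and the dashed lines 2-fold differences; maternal effect and oocyte-secreted genes lie near the solid line at high FPKM and Mapk3 lies below the lower dashed line.

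Lists of stored mRNA regulators held about as many 2-fold higher as lower genes, both at shares below the 18% and 22.3% of all genes. In the CPEB and polyadenylation list, 2 of 17 genes (11.8%) were 2-fold higher and 3 (17.6%) lower. Cpeb1, which recruits the polyadenylation machinery to stored mRNA, had 418 FPKM in Erk-/- and 376 FPKM in wild type. Among 16 CCR4-NOT and BTG/TOB genes, 2 (12.5%) were higher and 2 (12.5%) lower. Cnot6l, the deadenylase subunit that is translated during maturation, had 157 FPKM in Erk-/- and 77.9 FPKM in wild type, a change of 1 at the threshold, and Tob1 was listed at 0 in Erk-/- and at 11.9 FPKM in wild type. Among 29 storage and decay genes, 3 (10.3%) were higher and 3 (10.3%) lower. Of these, Ybx1, an mRNA-packaging protein, had 151 and 69.2 FPKM. Zar1, which binds stored mRNAs in the oocyte, had 1617 and 2228 FPKM and did not pass 2-fold.

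Of 52 meiotic and mitotic cell cycle genes, 6 (11.5%) were 2-fold higher and 8 (15.4%) lower, with a median of -0.13. Both shares were below the 18% and 22.3% of all genes. Cdk1, the catalytic subunit of the kinase that drives meiotic resumption, had 31.5 FPKM in Erk-/- and 90.3 FPKM in wild type. The Btg4-experiment wild type held Cdk1 at 32.6 and 30.8 FPKM, near the Erk-/- value. Its cyclin partner Ccnb1 had 201 and 208 FPKM, a change of -0.05. Wee1, an inhibitor of CDK1, had 1.26 FPKM in Erk-/- and 13.9 FPKM in wild type. Ensa, whose phosphorylated product inhibits the phosphatase PP2A-B55, had 52.9 and 8.19 FPKM. The cohesin subunit Smc1b had 2.26 and 13 FPKM. Regulators of this kinase past 2-fold thus lay on both sides, and all of those named were of low abundance. Of 23 dormant mRNAs recruited in maturation, 2 (8.70%) were higher and 2 (8.70%) lower, again below the shares over all genes.

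Mitochondrial ribosomal protein genes held the largest excess of lower values among the lists of more than 15 tested genes. Of 71 tested, 26 (36.6%) were 2-fold lower and 11 (15.5%) higher, against 22.3% and 18% of all genes, and the median change was -0.57. That median stayed between -0.80 and -0.45 under every alternative tried. The bound of 15 genes was not planned, and it leaves out the p53 list (50% of 12 genes lower) and the ERK response list (46.2% of 13). Mrps16 had 26 FPKM in Erk-/- and 268 FPKM in wild type, with 353 and 289 FPKM in the wild-type GV libraries of the Btg4 experiment. Mrpl14 had 189 and 669 FPKM. In the other direction, Mrps12 had 122.8 FPKM in Erk-/- and 0.18 FPKM in wild type. The median transcript length of the list was 1764 bases, against 3188 over all genes. The part of length in these counts was not tested.

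Respiratory chain and ATP synthase genes also held more lower than higher values. Of 78 tested, 22 (28.2%) were 2-fold lower and 9 (11.5%) higher, against 22.3% and 18% of all genes, with a median of -0.32. Ndufa6, a subunit of complex I, had 9.39 FPKM in Erk-/- and 213 FPKM in wild type. Sdhc, a membrane subunit of complex II, had 0.12 and 78.2 FPKM. The ATP synthase subunit gene Atp5k had 194 and 681 FPKM, whereas its fellow subunit gene Atp5o had 302 and 121 FPKM. Uqcrfs1, the Rieske protein of complex III, had 103 and 28.9 FPKM. Members of 1 complex therefore differed in both directions. The median transcript length of the list was 1135 bases, against 3188 over all genes, and the part of length in its counts was not tested.

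Cytosolic ribosomal protein genes were spread to both sides with medians near that of all genes. Of 49 large-subunit genes, 9 (18.4%) were 2-fold higher and 8 (16.3%) lower, against 18% and 22.3% of all genes, with a median of -0.14. Of 31 small-subunit genes, 0 were higher and 4 (12.9%) lower, with a median of -0.17. Rpl38 had 38.7 FPKM in Erk-/- and 354 FPKM in wild type, and Rps25 14.4 and 130 FPKM. Rpl8 had 220 and 23.1 FPKM, and Rpl35 1564 and 719 FPKM. Against the mean of 3 wild-type libraries these 2 changes were 0.74 and 0.30, no longer 2-fold, and the Btg4-experiment wild type held Rpl8 at 313 and 306 FPKM. Rps28 had 76.6 and 392 FPKM. Many ribosomal protein genes have near-identical processed copies, among which reads can be split, so single members are uncertain. Together with the mitochondrial ribosomal and respiratory genes, these lists held 92 genes at 100 FPKM or more, of which 21 (22.8%) passed 2-fold, against 49 of the other 726 (6.75%). This grouping was formed after the values were seen. Its lists hold short transcripts, with median lengths of 1049 (large-subunit), 1109 (small-subunit), 1764 (mitochondrial ribosomal) and 1135 bases (respiratory), against 3188 over all genes. Of all 126 genes under 1000 bases at 100 FPKM or more, 24.6% passed 2-fold, a share near the 22.8%. The part of length in this difference was not tested.

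**Figure D4:**
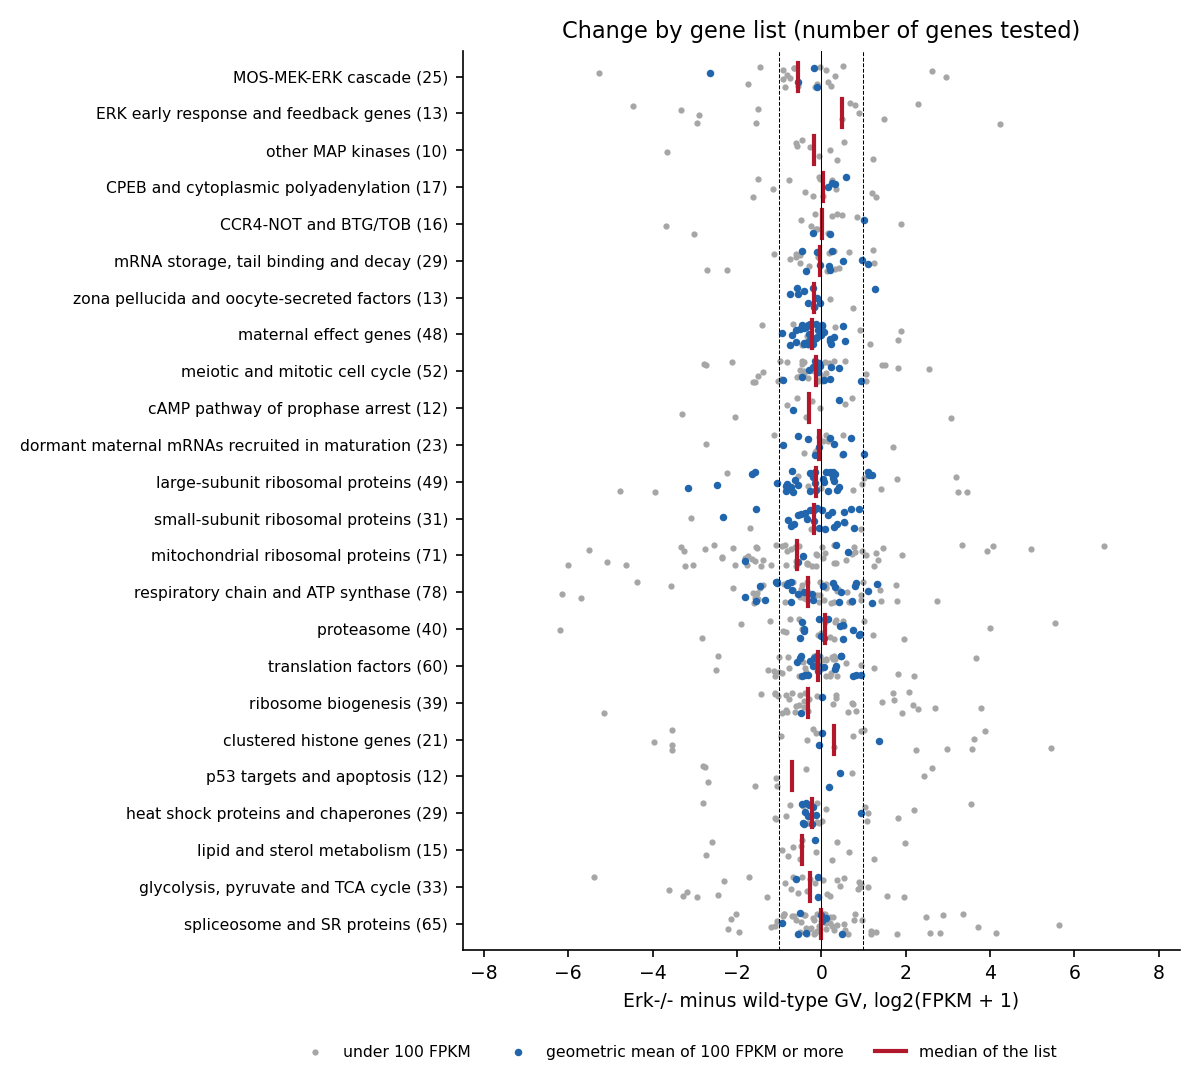
Each point is 1 tested gene, with its change Erk-/- minus wild type in log2(FPKM + 1) on the x axis and its list on the y axis; red bars mark list medians, dashed lines 2-fold, and blue points genes with a geometric mean of 100 FPKM or more. Blue points of the maternal effect list stay within the dashed lines, while those of the large-subunit ribosomal and respiratory lists reach past them on both sides and those of the small-subunit and mitochondrial ribosomal lists on the lower side.

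Other housekeeping lists were mixed, and are read against the 18% of all genes that were 2-fold higher and the 22.3% that were lower. Of 40 proteasome genes 5 (12.5%) were higher and 4 (10%) lower. Of 60 translation factor genes 4 (6.67%) were higher and 6 (10%) lower. Of 65 spliceosome genes 12 (18.5%) were higher and 7 (10.8%) lower. Ribosome biogenesis genes split into 9 (23.1%) higher and 5 (12.8%) lower of 39. The nucleolar methyltransferase gene Fbl had 44.5 FPKM in Erk-/- and 5.99 FPKM in wild type, and Npm3 had 0.34 and 46.7 FPKM. Of 33 genes of glycolysis, pyruvate and the TCA cycle, 3 (9.09%) were higher and 9 (27.3%) lower. Mdh1, the cytosolic malate dehydrogenase, had 7.84 and 66.9 FPKM there. Of 15 lipid and sterol genes 2 (13.3%) were higher and 2 (13.3%) lower. Of 12 genes of the cAMP pathway that keeps the oocyte in prophase, 1 (8.33%) was higher and 2 (16.7%) were lower. Of 21 histone genes, 8 (38.1%) were higher and 4 (19%) lower. This list joins clustered genes, a family of near-identical copies, with histone genes outside the clusters, such as H3f3a, H3f3b and H1foo. H3f3a was among the higher genes, with a change of 1.37.

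Heat shock and stress genes included several of the larger differences, with a list median below 0. Of 29 tested, 6 (20.7%) were 2-fold higher and 3 (10.3%) lower, against 18% and 22.3% of all genes, with a median of -0.22. Without regard to fold, 9 were higher and 20 lower, against 3833 and 4407 of all 8240 genes. Of the 11 members with a geometric mean of 100 FPKM or more, 10 were lower and only Atf4 was higher. The higher genes named next are therefore not typical of the list. The small heat shock protein gene Hspb1 had 88.5 FPKM in Erk-/- and 6.60 FPKM in wild type, against 9.31 and 3.66 FPKM in the wild-type GV libraries of the Btg4 experiment. Ddit3, a transcription factor of the unfolded protein response, had 97.6 and 20.3 FPKM in Erk-/- and wild type, against 14.9 and 13.8 FPKM in those 2 libraries. For both genes Erk-/- was thus above all 3 wild-type libraries. Hspa1a had 25.7 and 11.3 FPKM and Hspa1b, its near-identical neighbour, 40.5 and 18.5 FPKM. The stress factor gene Atf4 had 197 and 101 FPKM, a change of 0.95. In the other direction, Hspa2 was listed at 0 in Erk-/- and at 5.95 FPKM in wild type. Of 12 p53 target and apoptosis genes, 2 (16.7%) were higher and 6 (50%) lower. The short lists held 5 tested genes each: 2 of the 2-cell activation genes (Hspa1a and Hspa1b again) were higher and 0 lower, and 3 of the long non-coding RNA genes were higher and 2 lower. The 10 other MAP kinase genes tested had 1 (10%) higher and 1 (10%) lower.

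The largest changes of all were of genes listed at or near 0 in one library. Snhg9, a small nucleolar RNA host gene, had 280 FPKM in Erk-/- and was listed at 0 in wild type and in both wild-type GV libraries of the Btg4 experiment. Its deposited interval, 28.6 to 52.8 FPKM, lay far below that value, so its level is uncertain. Dcpp1 had 112 FPKM in Erk-/- and was listed at 0 in wild type. Ifitm3, an interferon-induced membrane protein gene, was listed at 0 in Erk-/- and at 183 FPKM in wild type. In all, 486 genes with 5 or more FPKM in wild type were listed at 0 in Erk-/-, 69 of them with 20 or more, and 347 the other way, 55 of them with 20 or more. For comparison, 37 of the 69 and 28 of the 55 had at least 5 FPKM in all 4 GV libraries of the Btg4 experiment. Without any gene listed at 0, 1140 genes were 2-fold higher and 1351 lower.

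Some opposite changes belonged to copies or paralogues of 1 gene, and the sums of 4 such pairs were formed. Oaz1, an inhibitor of ornithine decarboxylase, had 354 FPKM in Erk-/- and 80.6 FPKM in wild type. Its processed copy Oaz1-ps was at about 0 in Erk-/- and at 288 FPKM in wild type. The sums were 354 and 369 FPKM, a change of -0.06. The paralogue of Ifitm3, Ifitm6, had 365 FPKM in Erk-/- and 89.4 FPKM in wild type, and with Ifitm3 the sums were 365 and 272 FPKM, a change of 0.42. Apoo with Apoo-ps summed to 85.5 and 92.8 FPKM, whereas Apoo alone had 58.7 and 25.5 FPKM. Rpl34 with Rpl34-ps1 summed to 531 and 354 FPKM, a change of 0.58 that was the largest of the 4 sums. These pairs were chosen after their values were seen.

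The cell type labels were checked with marker lists. All 12 oocyte markers were above 0 in both libraries, with a summed level of 18236 FPKM in Erk-/- and 22568 FPKM in wild type. Of these, 1 passed 2-fold, the germ-line helicase gene Ddx4, with 7.4 and 36.2 FPKM. Of 20 granulosa and cumulus cell markers, 14 were listed at 0 in both libraries, among them the defining genes Fshr, Foxl2 and Amh, and the list summed to 37.2 and 26.2 FPKM. The aromatase gene Cyp19a1 was listed at 0 in Erk-/- and at 15.5 FPKM in wild type. The other 3 members that reached 5 FPKM were 2-fold higher in Erk-/-: Nr5a2 had 17.0 and 6.84 FPKM, Inha 11.3 and 3.80 FPKM, and Gja1 7.71 and 0.03 FPKM. All 12 blood markers were listed at 0, and theca and stromal markers summed to 0 and 1.57 FPKM. Sperm markers were listed at 0 except Prm2, with 13.6 and 12.0 FPKM. Endothelial markers summed to 52.2 and 27.6 FPKM, most of it Pecam1, with 42.9 and 25.6 FPKM, a change of 0.72. Of the 7 members 2 reached 5 FPKM, and the other of these was 2-fold higher in Erk-/-, a change of 2.18. Cdh5, Cldn5 and Vwf were listed at 0. The part of other cells in the changes above was not tested, and in pooled samples fewer cells of a type and less RNA per cell cannot be told apart. The 45S ribosomal RNA locus Rn45s, a sign of residual ribosomal RNA, had 590 FPKM in Erk-/- and 118 FPKM in wild type.

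Genes near Mapk3 were counted separately. Within 5 Mb of it, 6 of 73 tested genes (8.22%) were 2-fold higher and 11 (15.1%) lower, against 18% and 22.3% of all genes.

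Genes that change in normal maturation were then followed, as defined in the wild-type libraries of the Btg4 experiment alone. Of 1102 tested genes that fell at least 4-fold there from GV to MII, 17.1% were 2-fold higher and 23.5% lower in Erk-/- GV oocytes, with a median of -0.11. Of 687 that rose at least 4-fold, 9.61% were higher and 15.4% lower, with a median of -0.07. Both medians lay close to the -0.08 of all genes. Against 18% higher and 22.3% lower of all genes, the shares of the fallen genes were close and both shares of the risen genes were lower. The fallen and the risen genes each had a higher median FPKM than all genes tested, in Erk-/- and in wild type. The part of abundance in these shares was not tested.

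The GV changes were set beside those of the MII pair, which shares no library with them. Across 5679 genes tested at both stages, Pearson's r of the changes was -0.04, given as a description across genes. Of the 779 genes 2-fold higher at GV and tested at MII, 54.4% were higher at MII, and of the 995 lower at GV 40.0% were lower at MII, where 60.7% of all genes were higher. The lists parted in the same way. Over the genes tested at both stages, the large-subunit ribosomal proteins had a median of -0.14 at GV and 1.51 at MII, with 27 of 44 genes 2-fold higher at MII. Zona and oocyte-secreted genes had -0.17 and 1.82, and respiratory chain genes -0.32 and 1.27. Zp2, for example, had 449 FPKM in Erk-/- and 78.7 FPKM in wild type at MII, opposite to its order at GV. The MOS-MEK-ERK list had medians below 0 at both stages, -0.60 and -0.31. At MII 4 of its 20 genes were 2-fold higher and 3 lower, against 33.4% and 6.87% of all genes. These differences between stages were not tested. The wild-type MII library was the sparser of its pair, with 7265 symbols at 1 FPKM or more against 8927 in Erk-/- MII. Of 1605 genes with 20 to 100 FPKM as their lowest GV value in the Btg4 experiment, wild-type MII listed 12.1% at 0. Erk-/- MII listed 1.99% of them at 0. The part of this in the MII changes was not tested.

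**Figure D5:**
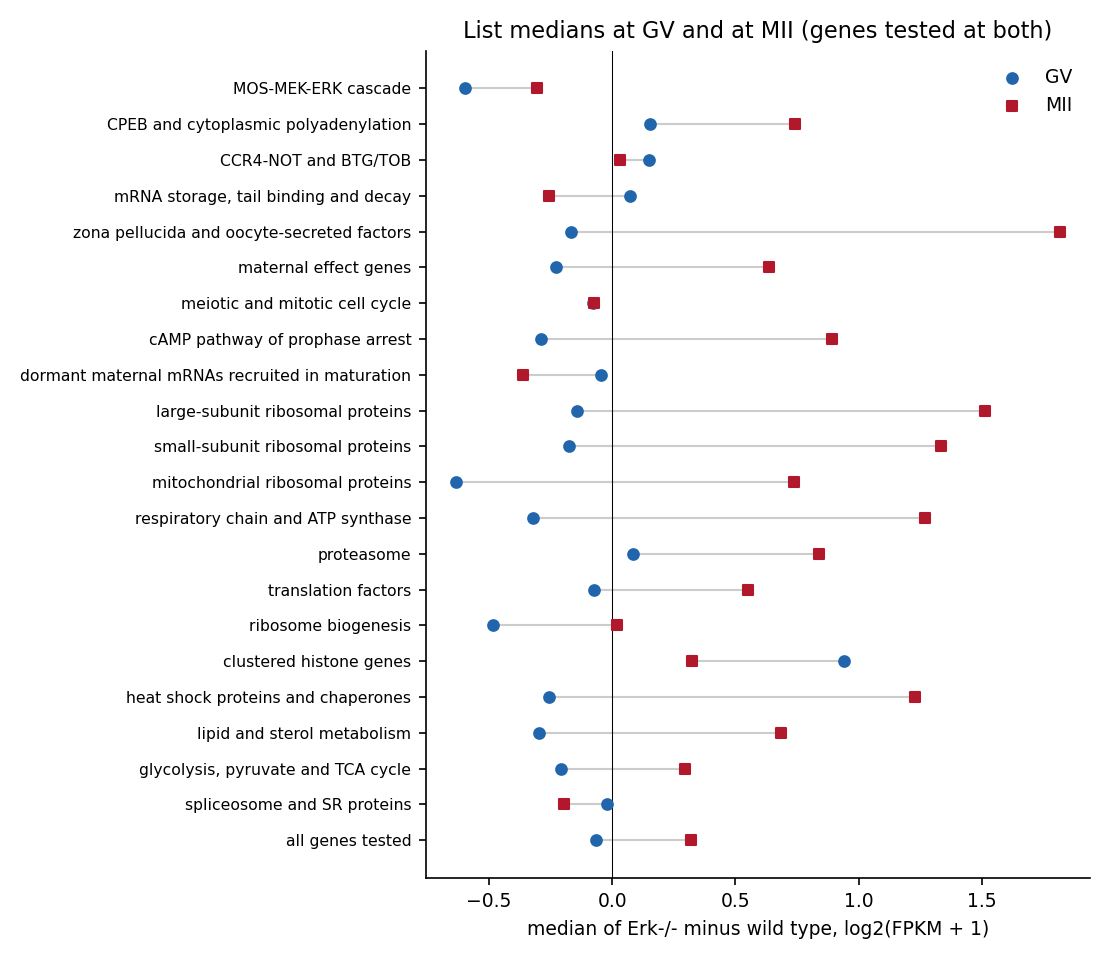
Points give the median change Erk-/- minus wild type in log2(FPKM + 1) of each list at GV (circles) and MII (squares), over the genes tested at both stages, for lists with 10 or more such genes. GV medians lie between -0.63 and 0.15 except that of the histone genes at 0.94, and the large- and small-subunit ribosomal, respiratory, zona and heat shock lists lie above 1 at MII.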

How the data were processed

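Gene-level FPKM values were used as the authors deposited them, 1 table per library. Per the submitters' processing notes these were made with Cufflinks after CASAVA 1.8 and TopHat, against mm9. For TopHat and Cufflinks the version, and likewise the annotation release and any use of strand, is not given in the sources used here. These values are relative to the library, so a class that takes a larger share lowers all others, and mRNA purified by its tail can change with tail length. Loci of 1 symbol were summed (260 symbols). The deposited intervals cover counting error only, and for 11.5% (Erk-/-) and 14.2% (wild type) of genes at 5 FPKM or more the FPKM lay outside its own interval, so intervals served only for overlap and for estimating depth (taken as 4 SDs wide, over genes at 20 to 500 fragments). For these 2 libraries the exact fragment counts are not in the values, so no count test was run.

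Changes were computed with Python 3.11.15 and pandas 2.3.3 on log2(FPKM + 1), with a floor of 5 FPKM in either library. The code was tested on simulated data. Transcript lengths are the longest transcript per symbol in GENCODE M21 (99.4% of tested genes matched). The 26 gene lists and 6 marker lists, and the genes named, were chosen with earlier results of these data known. Named genes were the 15 largest rises and falls with 20 FPKM or more, up to 4 per list by size of change, Mapk3 and Btg4, the 10 most abundant, neighbours and leading markers. Further list members were named for their role, and Lamtor2 by a rule added after values were seen (largest changes among genes with 5 FPKM in both libraries and 100 in the higher). Some genes of the lists are not reported here. Alternatives covered pseudocount, filters, scaling, locus handling, status, wild-type reference, length and fold.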

Additional observations from a re-analysis of the deposited data

Results flagged for a closer look

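With 1 library per group, a sample that stands apart from its group cannot be looked for. The results below were singled out because the Erk-/- library lay at least 2-fold on one side of wild type at GV and at least 2-fold on the other at MII, among genes with a geometric mean of 100 FPKM or more at GV and 20 FPKM or more in the higher library at both stages. The difference between the stages was not tested. Of 181 genes past 2-fold at both stages, without the limit of 100 FPKM, 103 went opposite ways, 91 of them lower at GV and higher at MII, and 78 went the same way, 55 of them higher. These counts are to be read against the MII pair as a whole. In that pair the wild-type library listed 14175 symbols at 0 and the Erk-/- library 12481. Of all 5679 genes tested at both stages 33.4% were 2-fold higher and 6.87% lower at MII, and of the 812 with 100 FPKM or more at GV 44.2% and 2.59%.

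Of the 15 genes, 13 were lower in Erk-/- at GV and higher at MII. Among ribosomal protein genes the GV changes were -3.16 for Rpl38, -1.64 for Rpl39l, -1.54 for Rps15 and -1.05 for Rpl39, and their MII changes were 6.61, 2.33, 4.32 and 2.21. Among respiratory chain genes the GV changes were -1.55 for Ndufa1, -1.06 for Cox6a1, -1.06 for Cox7c and -1.06 for Atp5g1. In the same order, the MII changes were 1.47, 1.5, 7.39 and 1.27, with Cox7c listed at 0 in wild-type MII. The oocyte gene Oog4 had -1.04 at GV and 1.40 at MII, and the surface protein gene Cd7 -1.38 and 3.74. For Pdcd5, listed at 0 in wild-type MII, the values were -1.07 and 5.87, for the cyclophilin gene Ppia -1.61 and 1.8, and for Gm12191 -1.62 and 4.09. The other two were higher at GV and lower at MII: Tor1a had 1.14 and -1.03, and Ybx1 1.11 and -1.89.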

How the results depend on the processing

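The counts of genes 2-fold higher (1487) and lower (1837) stayed within 1.5 times under a pseudocount of 0.1, filters of 1 and 10 FPKM or none, median-of-ratios scaling, quantile normalization, the largest locus of a symbol, status OK in both libraries and removal of a length trend. With wild type as the mean of 3 libraries, 3271 genes were higher and 1503 lower. At a fold of 4, 693 were higher and 911 lower. Added after seeing the data, genes with transcripts of 1000 bases or more gave 1367 and 1703. The Mapk3 change of -2.65 became -0.43 with 3 wild-type libraries and -2.43 with the length trend removed. With 3 wild-type libraries the changes of Mknk2 (0.24), Nlrp9c (0.42), Smc1b (0.22), Cox6a1 (0.86) and Rn45s (-1.999) reversed; the cause was not tested. Another 21 of the 84 genes followed, none past 2-fold, changed sign there, among them Nlrp5 (4.74), Ldhb (4.06), Zp3 (2.98), Gdf9 (1.21), Btg4 (-1.69) and Dusp7 (-0.15). Quantile normalization changed the sign of 8 of the 84 and median-of-ratios scaling of 1, none past 2-fold. Of 52 genes followed that were past 2-fold, 33 stayed past it under every alternative run on single genes (pseudocount, scaling, locus, wild-type reference, length). Of 26 list medians, 10 kept their sign under every alternative listed above; under scaling alone, the storage and decay list, the dormant list and (0.0035, quantile normalization) the zona list changed sign, and the large-subunit list came to 0. No paired analysis was possible because each group has 1 library. Estimated depth was higher in these 2 libraries than in the GV replicates of the Btg4 experiment. In those replicates 4.54% and 6.74% of genes under 10 FPKM passed 2-fold, against 72.4% here. Between 0 and 1 FPKM, Erk-/- held 757 symbols and wild type 804, against 4087 to 4951 in the Btg4-experiment GV libraries. The part of depth and of these low values in the shares past 2-fold was not tested.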
